A study of Mus musculus with 7 samples.

Results

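The storage of triglyceride in mouse retinal pigment epithelium (RPE) was examined through 10 genes, chosen by name: the perilipin coats of the lipid droplet (Plin2, Plin3, Plin4 and Plin5), the lipases that empty it with their co-activator (Pnpla2, Abhd5, Lipe and Mgll), and the acyltransferases that fill it (Dgat1 and Dgat2). All 10 were in the count table of 52740 genes and all 10 were among the 16990 genes with enough counts to be tested. The libraries were 4 from WT mice (C57BL6/J, 3 females and 1 male) and 3 from LC3b-/- mice (2 females and 1 male), each from RPE of one mouse aged 24 months. LC3b-/- mice carry a germline deletion of Map1lc3b, which encodes the LC3b protein of autophagosomes and of LC3-associated phagosomes, on a mixed B6 and 129P2 background, and both lines came from a commercial supplier. The genotype therefore cannot be told apart from the strain background, nor from a number in the library labels. The meaning of that number is not given, and no WT library shared it with an LC3b-/- library. Within LC3b-/-, the male had another such number than the females, so sex cannot be told apart from it there. The p-values measure the spread between these mice.

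Each library held between 24495952 and 35616134 counts. Levels are given as CPM, the counts of a gene relative to the TMM-scaled total of its library. Values listed library by library stand in the order F1, F2, F3, M1 for WT and first F1, next F3 and last M for LC3b-/-, where F marks a female and M a male. Map1lc3b was read first as a check of the labels: it lay at 130, 117, 104 and 110 CPM in WT and at 6.77, 8.33 and 6.76 CPM in LC3b-/- (log2 fold change -3.98 ± 0.15 standard error, SE, adjusted p = 0.000186). The libraries also differed in marker genes of cell types. The summed level of 10 RPE markers was 31218 to 48148 CPM in WT and 14293 to 28910 CPM in LC3b-/-, and 9 of the 10 were lower in LC3b-/-, with a median log2 fold change of -0.81. The 10 markers of ocular surface epithelium summed to 9.62 to 2479 CPM in WT and 3498 to 25579 CPM in LC3b-/-, and all 10 were higher. Markers of endothelium summed to 277 to 945 CPM in WT and 1119 to 1202 CPM in LC3b-/-, and those of photoreceptors to 276 to 21141 CPM and 98.4 to 7279 CPM. The 8 fat cell markers summed to 4.23 to 13.1 CPM in WT and 11 to 15.4 CPM in LC3b-/-. Most of this was Fabp4, which endothelium also expresses and which lay at 3.74 to 11.6 CPM in WT and 9.87 to 14.8 CPM in LC3b-/- (log2 fold change 0.80, adjusted p = 0.234), while the other 7, Adipoq and Lep among them, stayed at or below 0.953 CPM in every library. In bulk RNA, fewer cells of a type and less RNA per cell cannot be told apart.

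Lipid droplets are organelles with a core of triglyceride and cholesteryl ester inside a single layer of phospholipid, and perilipins cover that layer. Triglyceride is made by adding a fatty acid to diacylglycerol, a step carried out by the DGAT enzymes, and is broken down one fatty acid at a time by adipose triglyceride lipase (Pnpla2), hormone-sensitive lipase (Lipe) and monoacylglycerol lipase (Mgll). RPE cells take up the lipid-rich tips of photoreceptor outer segments every day, and droplets are one place where the fatty acids and retinyl esters of this cell can be stored. The comparison asked whether the mRNAs of this cycle differed between RPE of mice with and without LC3b.

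None of the 10 genes passed the test between genotypes, which was an edgeR quasi-likelihood test read at a Benjamini-Hochberg adjusted p below 0.05 together with a 1.5-fold difference or more. Across all genes tested, 40 passed, which is 0.235%. Plin2 in LC3b-/- was at 0.642 times and Dgat2 at 1.51 times its WT level, and in these 2 genes the groups did not overlap. Of all genes tested, 22.3% had groups that did not overlap, and 24.1% had an unadjusted p under 0.05 (10.6% lower and 13.5% higher in LC3b-/-). Plin2 and Dgat2 were also the 2 of 10 genes with such a p, so the share of the 10 genes was near that of all genes in both counts. The median log2 fold change of the 10 genes was -0.06, with 5 genes higher and 5 lower, against 0.01 over all genes.

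**Figure D1:**
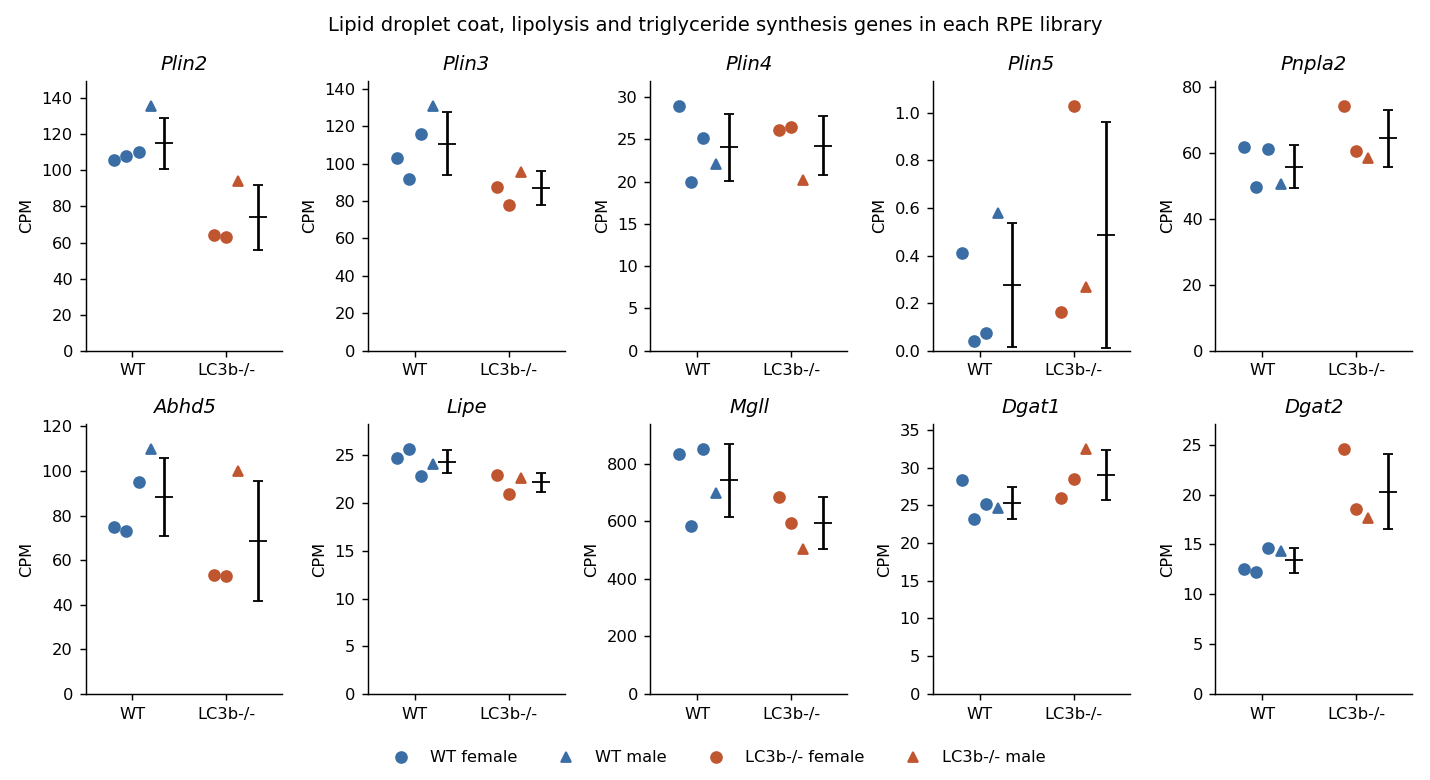
Each panel shows 1 gene, with CPM on the vertical axis from 0 and each library as a point (circles for females, triangles for males, WT in blue and LC3b-/- in orange), and the bar gives the mean ± SD of each genotype. The LC3b-/- points lie below every WT point for Plin2 and above every WT point for Dgat2, and the groups overlap in the other 8 panels.

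The sequences before the transcription start are shown for the pair of genes whose groups did not overlap and for Mgll, the most abundant of the 10 per length. Each run is the 250 bases before the start of the canonical transcript of GENCODE vM39, read 5′ to 3′ on the gene's strand from the GRCm39 genome. The Plin2 window is chr4:86588460-86588709 (minus strand), that of Dgat2 is chr7:98831962-98832211 (minus strand) and that of Mgll is chr6:88701144-88701393 (plus strand). The Mgll window lies inside the span of the gene, since other annotated transcripts begin further upstream. Capitals mark matches on either strand to the nuclear receptor half-site AGGTCA in Plin2, the GC box GGGCGG in Dgat2 and the E-box CACGTG in Mgll.
Plin2: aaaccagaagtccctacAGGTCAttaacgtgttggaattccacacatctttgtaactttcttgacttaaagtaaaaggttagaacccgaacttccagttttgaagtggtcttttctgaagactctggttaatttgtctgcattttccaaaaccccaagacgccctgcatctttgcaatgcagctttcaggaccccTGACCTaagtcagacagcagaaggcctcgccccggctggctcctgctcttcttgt
Dgat2: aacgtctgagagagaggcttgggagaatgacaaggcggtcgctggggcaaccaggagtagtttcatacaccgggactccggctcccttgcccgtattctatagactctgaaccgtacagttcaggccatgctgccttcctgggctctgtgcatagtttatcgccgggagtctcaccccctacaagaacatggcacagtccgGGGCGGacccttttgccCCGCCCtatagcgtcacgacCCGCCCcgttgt
Mgll: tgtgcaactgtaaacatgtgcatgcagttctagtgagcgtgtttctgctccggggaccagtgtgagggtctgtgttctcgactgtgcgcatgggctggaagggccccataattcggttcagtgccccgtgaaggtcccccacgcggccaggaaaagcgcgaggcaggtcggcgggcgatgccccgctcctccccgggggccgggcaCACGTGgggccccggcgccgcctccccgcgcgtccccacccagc

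Plin2 carried 2 half-sites, 233 and 55 bases before the start, and Dgat2 carried 3 GC boxes, 49, 32 and 12 bases before it. The Mgll E-box began 44 bases before the start. A half-site was present in the windows of 3 of the 10 genes (Plin2, Plin5 and Abhd5) and in 13.1% of the windows of 21770 protein-coding genes. A GC box was present in 6 of the 10 and in 36.3% of all windows, and an E-box in 1 of the 10 and in 6.26% of all windows. The CCAAT box was found in 2 of the 10 (36.5% of all windows) and TATAAA in 0 of the 10 (11.9% of all windows). No window of the 10 held 2 half-sites on the same strand with 1 base between them, the arrangement known from PPAR response elements, which 0.0367% of all windows held. These motifs do not overlap in the windows shown, and a match is a description of letters, not of binding.

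Per length, Mgll stood well above the other 9 genes. In WT, Mgll lay at 120 ± 20.3 CPM per kilobase of merged exons (SD, n = 4), followed by Plin3 at 15.1 ± 2.28, Plin2 at 15.0 ± 1.84, Pnpla2 at 14.2 ± 1.65 and Abhd5 at 12.4 ± 2.48 CPM per kilobase. The ranges of these last 4 neighbours overlapped, so no order among them can be read on this length. Dgat1 followed at 5.57 ± 0.467, Lipe at 4.08 ± 0.205, Plin4 at 3.01 ± 0.496 and Dgat2 at 2.22 ± 0.205 CPM per kilobase, and the ranges of these neighbours did not overlap. Plin5 was last, at 0.09 ± 0.0851 CPM per kilobase. The order in between depended on the length used. Per kilobase of the canonical transcript, Mgll (202 ± 34.2 CPM) was still first and Plin5 (0.123 ± 0.116 CPM) last, but Plin2 came second at 56.1 ± 6.91 CPM, above Plin3 at 28.0 ± 4.21, Abhd5 at 27.6 ± 5.53 and Pnpla2 at 27.1 ± 3.15 CPM, and Dgat2 at 5.02 ± 0.462 CPM passed Plin4 at 3.23 ± 0.531 CPM. Which transcripts the reads came from was not analysed here.

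**Figure D2:**
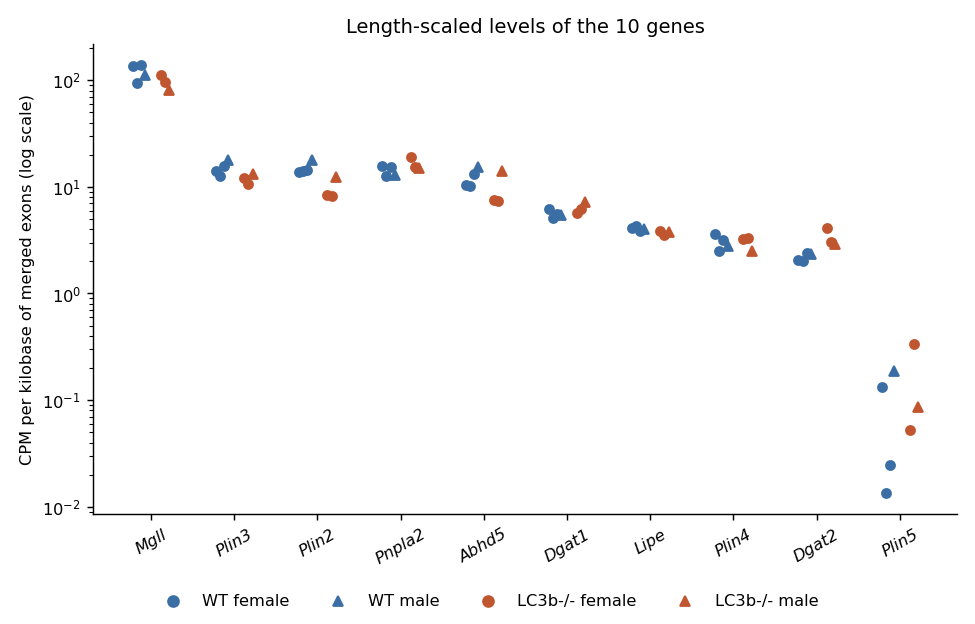
The vertical axis gives CPM per kilobase of merged exons on a log scale and the horizontal axis the 10 genes in order of their WT mean, with each library as a point (circles females, triangles males, WT blue, LC3b-/- orange). Mgll lies near 120 CPM per kilobase in WT, the means of 4 genes lie between 12.4 and 15.1, and Plin5 lies lowest and most spread.

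Plin2 (ENSMUSG00000028494, chr4:86565912-86588459, minus strand of GRCm39) encodes perilipin 2, the coat found on droplets of most cells outside fat tissue. It lay at 106, 108, 110 and 136 CPM in WT, and at 64.4, 62.9 and 94.4 CPM in LC3b-/-. Every LC3b-/- library was below every WT library, and the male was the highest library of each genotype. The mean was 115 ± 14.2 CPM in WT (SD, n = 4) and 73.9 ± 17.8 CPM in LC3b-/- (SD, n = 3), a log2 fold change of -0.64 ± 0.18 (SE) with an unadjusted p of 0.00864 and an adjusted p of 0.112 in edgeR. The exact two-sided permutation test gave p = 0.0286, the smallest that it can give. DESeq2, which passed 9.41% of the genes that it tested, passed Plin2 at an adjusted p of 0.0289, and so did edgeR with sex as a covariate (0.0437) and without LC3b-/- M (0.0451).

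Among the females alone the log2 fold change of Plin2 was -0.77 (adjusted p = 0.0726), and the male LC3b-/- library lay 0.53 below the male WT library on the log2 scale, a difference of 1 library against 1 with no test. The 2 libraries with the lowest RPE marker sums, LC3b-/- F1 (14293 CPM) and F3 (16811 CPM), were also the 2 with the least Plin2. The part of the RPE marker difference in the Plin2 difference was not tested.

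**Figure D3:**
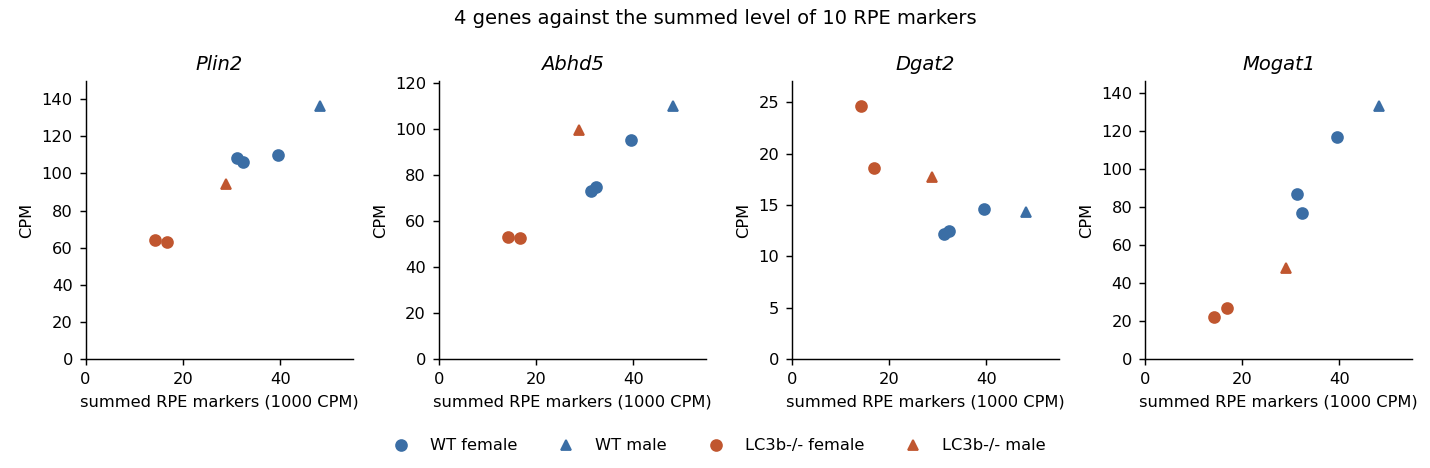
The horizontal axis gives the summed level of 10 RPE markers in units of 1000 CPM and the vertical axis the CPM of Plin2, Abhd5, Dgat2 or Mogat1, with each library as a point (circles females, triangles males, WT blue, LC3b-/- orange). The LC3b-/- F1 and F3 libraries have the lowest marker sums, the lowest Plin2, Abhd5 and Mogat1, and the highest Dgat2.

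Plin3 (ENSMUSG00000024197, chr17:56584218-56599873, minus strand) encodes perilipin 3, a soluble protein that moves onto nascent droplets. It lay at 103, 92.0, 116 and 131 CPM in WT, and at 87.5, 77.6 and 95.5 CPM in LC3b-/-. The LC3b-/- F1 and F3 libraries were below every WT library, while LC3b-/- M was above WT F2. The log2 fold change was -0.35 ± 0.15 (SE), with an unadjusted p of 0.0517 and an adjusted p of 0.21.

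Plin4 and Plin5 lie next to each other on chromosome 17, both on the minus strand. Plin4 (ENSMUSG00000002831, chr17:56406617-56416931), a perilipin of fat and muscle cells with a long run of repeated helices, lay at 29.0, 19.9, 25.2 and 22.1 CPM in WT, and at 26.1, 26.5 and 20.2 CPM in LC3b-/-. The 2 groups covered the same range, with a log2 fold change of 0.01 ± 0.17 (SE) and an adjusted p of 0.973. Its canonical transcript shares 1995 bases with transcripts of Hdgfl2 on the opposite strand. The libraries were made with a stranded kit, but whether the counting used strand is not given in the sources used here. If it did not, reads of this stretch may belong to either gene. Hdgfl2 lay at 59.0 ± 3.8 CPM in WT (SD, n = 4) and at 56.6 ± 2.5 CPM in LC3b-/- (SD, n = 3).

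Plin5 (ENSMUSG00000011305, chr17:56418446-56424610), the perilipin that ties droplets to mitochondria in heart, muscle and liver, was close to the limit of detection. It had 14, 1, 2 and 15 counts in WT and 4, 41 and 9 counts in LC3b-/-. In CPM it lay between 0.0414 and 0.577 in WT and between 0.161 and 1.03 in LC3b-/-. The log2 fold change of 0.82 ± 0.98 (SE, adjusted p = 0.637) rested on LC3b-/- F3, without which it was -0.39. A difference in Plin5 was not detectable at this depth.

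As a share of the 4 perilipins, counted per length, Plin2 made up 43.5%, 48.2%, 42.9% and 45.9% in WT and 35.3%, 36.4% and 43.9% in LC3b-/-. Plin3 held 45.5% ± 1.91 in WT (SD, n = 4) and 48.2% ± 2.09 in LC3b-/- (SD, n = 3). Plin4 held 9.16% ± 1.8 and 12.5% ± 3.08 in the same order, and Plin5 stayed under 1.5% in every library. The ranges of the genotypes overlapped for each of the 4. The shares themselves depend on which length is used, and with the canonical transcript Plin2 held 64.2% in WT and 58.1% in LC3b-/-.

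Pnpla2 (ENSMUSG00000025509, chr7:141034404-141040656, plus strand) encodes adipose triglyceride lipase, the enzyme of the first step of lipolysis. It lay at 61.8, 49.9, 61.2 and 50.7 CPM in WT, and at 74.5, 60.8 and 58.5 CPM in LC3b-/-. LC3b-/- F1 was the highest library, and the other 2 LC3b-/- libraries lay within the WT range. This gave a log2 fold change of 0.21 ± 0.14 (SE) and an adjusted p of 0.383.

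Abhd5 (ENSMUSG00000032540, chr9:122180621-122222936, plus strand) encodes CGI-58, the protein that activates Pnpla2 and that perilipins hold back. It lay at 75.0, 73.3, 95.3 and 110 CPM in WT, and at 53.4, 52.7 and 99.8 CPM in LC3b-/-. The female LC3b-/- libraries were below every WT library and the male LC3b-/- library was above 3 of the 4. The log2 fold change was -0.37 ± 0.27 (SE), with an adjusted p of 0.433, and without LC3b-/- M it was -0.74. Its 2 highest WT libraries, F3 and M1, had the highest RPE marker sums (39472 and 48148 CPM), and its 2 lowest libraries, LC3b-/- F1 and F3, had the lowest. LC3b-/- M did not follow this order: its marker sum, 28910 CPM, was below that of every WT library, while its Abhd5 was above 3 of the 4. The part of the RPE marker difference in the Abhd5 difference was not tested.

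Lipe (ENSMUSG00000003123, chr7:25078880-25098135, minus strand), hormone-sensitive lipase, cleaves diacylglycerol and also cholesteryl and retinyl esters. It lay at 24.7, 25.7, 22.8 and 24.1 CPM in WT, and at 22.9, 21.0 and 22.6 CPM in LC3b-/-. All 7 libraries lay close together, and the groups overlapped through WT F3 alone. Lipe had a log2 fold change of -0.13 ± 0.1 (SE), with an adjusted p of 0.457.

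Mgll (ENSMUSG00000033174, chr6:88652108-88805342, plus strand), monoacylglycerol lipase, frees the last fatty acid and also degrades the endocannabinoid 2-arachidonoylglycerol. It lay at 835, 585, 852 and 697 CPM in WT, and at 685, 593 and 504 CPM in LC3b-/-. LC3b-/- M was the lowest library of all, and the LC3b-/- females lay within the WT range. The log2 fold change was -0.32 ± 0.2 (SE), with an adjusted p of 0.35. Per length, the ratio of Mgll to Lipe was 29.6 ± 6.11 in WT (SD, n = 4) and 25.8 ± 3.88 in LC3b-/- (SD, n = 3).

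Dgat1 (ENSMUSG00000022555, chr15:76385083-76396476, minus strand) encodes the DGAT enzyme of the endoplasmic reticulum, which also esterifies retinol. It lay at 28.3, 23.2, 25.2 and 24.7 CPM in WT, and at 26.0, 28.5 and 32.5 CPM in LC3b-/-. LC3b-/- F3 and M were above every WT library and LC3b-/- F1 was below WT F1. The log2 fold change was 0.19 ± 0.13 (SE), with an adjusted p of 0.378. Its canonical transcript shares 379 bases with Hsf1 on the opposite strand, and Hsf1 lay at 28.3 ± 1.49 CPM in WT (SD, n = 4) and 28.7 ± 1.69 CPM in LC3b-/- (SD, n = 3).

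Dgat2 (ENSMUSG00000030747, chr7:98802491-98831991, minus strand) encodes the DGAT enzyme that is unrelated to Dgat1 in sequence and that can sit on the droplet surface. It lay at 12.5, 12.2, 14.6 and 14.3 CPM in WT, and at 24.6, 18.6 and 17.7 CPM in LC3b-/-. Every LC3b-/- library was above every WT library, and LC3b-/- F1 was the highest. The mean was 13.4 ± 1.24 CPM in WT (SD, n = 4) and 20.3 ± 3.8 CPM in LC3b-/- (SD, n = 3), a log2 fold change of 0.60 ± 0.16 (SE) with an unadjusted p of 0.00659 and an adjusted p of 0.105 in edgeR. The exact two-sided permutation test gave p = 0.0286, again the smallest possible. DESeq2 gave an adjusted p of 0.049 for Dgat2 at a fold change below 1.5, so Dgat2 passed in neither test.

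The order of the 3 LC3b-/- libraries in Dgat2 was that of their ocular surface marker sums, which were 25579, 7018 and 3498 CPM in F1, F3 and M. Within WT it was not: WT F3, with a marker sum of 9.62 CPM, had the highest Dgat2, at 14.6 CPM. Markers of meibomian and sebaceous glands, whose cells make neutral lipid, summed to 216 to 308 CPM in WT and 119 to 210 CPM in LC3b-/-. That sum came almost wholly from Soat1, Scd1 and Elovl4, which other cells also express. Of the more gland-specific markers, Awat2 lay at 0.498 to 1.24 CPM in WT and 0.354 to 0.627 CPM in LC3b-/-, and Awat1, Mc5r, Krt79 and Dgat2l6 had too few counts to be tested, with at most 9 in a library. The part of other cell types in the Dgat2 difference was not tested.

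**Figure D4:**
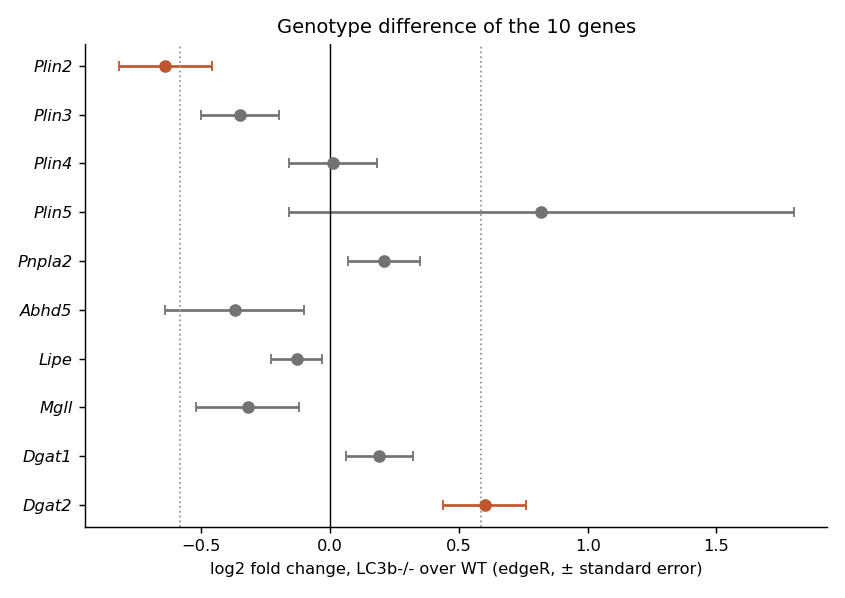
The horizontal axis gives the log2 fold change of LC3b-/- over WT from edgeR with its standard error as a bar, 1 row a gene, with orange for genes whose groups did not overlap and dotted lines at a fold change of 1.5. Plin2 lies at -0.64 and Dgat2 at 0.60, and the other 8 genes lie closer to 0 or, for Plin5, have a standard error of 0.98.

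Ratios within a library were taken per kilobase of merged exons, a choice that scales both genotypes alike. Pnpla2 over Plin2, lipase to coat, was 1.14, 0.9, 1.09 and 0.726 in WT and 2.26, 1.89 and 1.21 in LC3b-/-, so that the groups did not overlap. Pnpla2 over Abhd5, lipase to co-activator, was 1.18 ± 0.274 in WT (SD, n = 4) and 1.9 ± 0.755 in LC3b-/- (SD, n = 3), with overlap. Dgat2 over Dgat1 was 0.334, 0.395, 0.437 and 0.437 in WT and 0.714, 0.491 and 0.409 in LC3b-/-, and LC3b-/- M lay within the WT range. These ratios reuse the values given above and were not tested.

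The genotype difference did not pass a test of interaction with sex for any of the 10 genes (adjusted p of at least 0.998), and that term rested on 1 male of each genotype.

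The wider pathway was read from 76 genes in 5 lists, of which 65 were tested. None passed the test. At an unadjusted p under 0.05, 13 were higher and 13 were lower, together 40.0% of the 65 against 24.1% of all genes. The groups did not overlap in 21, which is 32.3% against 22.3% of all genes. DESeq2 passed 7, which is 10.8% against 9.41% of all genes. The lists were chosen with earlier results of these data known, so these shares are a description and not a test of the pathway. Other glycerolipid synthesis genes (glycerol phosphate and monoacylglycerol acylation, the Agpat genes, the lipins and Tmem68) held 14 tested genes, 9 lower and 5 higher. Their median log2 fold change was -0.22, and 6 had an unadjusted p under 0.05, which is 42.9% against 24.1% of all genes.

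Mogat1, which makes diacylglycerol from monoacylglycerol, was the most abundant of these genes per length. It lay at 76.7, 86.7, 117 and 133 CPM in WT, and at 22.3, 27.2 and 47.8 CPM in LC3b-/-. The groups did not overlap, as in 22.3% of all genes, and Mogat1 had a log2 fold change of -1.67 ± 0.32 (SE) with an adjusted p of 0.0842. Its 2 lowest libraries were again those with the lowest RPE marker sums, LC3b-/- F1 and F3, and the part of that in the difference was not tested. The related Mogat2 was at 1.37 to 3.42 CPM in WT and 0.282 to 0.561 CPM in LC3b-/- (log2 fold change -2.29 ± 0.48, adjusted p = 0.0906). On the other side, Gpat3, an acyltransferase of glycerol 3-phosphate, was at 1.35 to 2.99 CPM in WT and 2.16 to 6.0 CPM in LC3b-/- (log2 fold change 1.14, adjusted p = 0.177). Lpin3, a phosphatidate phosphatase, was at 4.89 to 6.73 CPM and 6.17 to 12.4 CPM (log2 fold change 0.65, adjusted p = 0.192).

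The other droplet proteins held 11 tested genes, 7 lower and 4 higher, with a median log2 fold change of -0.08. Of these, 4 had an unadjusted p under 0.05, which is 36.4% against 24.1% of all genes. Hsd17b11, a droplet-bound dehydrogenase and the most abundant of them per length, was at 89.1 to 117 CPM in WT and 80.4 to 95.8 CPM in LC3b-/- (log2 fold change -0.31, adjusted p = 0.206). Ldaf1, the partner of seipin where droplets form, was at 5.17 to 14.9 CPM in WT and 17.2 to 34.3 CPM in LC3b-/- (log2 fold change 1.2, adjusted p = 0.16). Cidea, a droplet fusion protein, had 1 to 21 counts in WT and 30 to 161 in LC3b-/- (log2 fold change 2.1 ± 0.83, adjusted p = 0.182). Plin1 and Cidec, the coat and fusion protein of fat cells, were below the level for testing, with at most 5 and 12 counts in a library.

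Inhibitors and other neutral lipases held 12 tested genes, 6 higher and 6 lower, with a median log2 fold change of -0.09. At an unadjusted p under 0.05 there were 3, all lower, which is 25.0% against 24.1% of all genes: Ddhd2, Abhd6 and Abhd12. Abhd12, a lipase of monoacylglycerol and lysophospholipid, is named here after its values were seen. It was at 73.7 to 87.5 CPM in WT and 53.0 to 64.1 CPM in LC3b-/- (log2 fold change -0.44, adjusted p = 0.105). G0s2 and Hilpda, the small proteins that inhibit Pnpla2, were at 3.11 to 7.42 CPM and 8.96 to 18.6 CPM in WT, and at 4.16 to 6.14 CPM and 12.8 to 22.4 CPM in LC3b-/- (adjusted p = 0.685 and 0.48). Lipa, the lysosomal acid lipase and the most abundant of the list per length, had a log2 fold change of -0.19 (adjusted p = 0.437). Ddhd2, a triglyceride lipase known from neurons, was at 28.2 to 40.9 CPM in WT and 19.5 to 30.5 CPM in LC3b-/- (log2 fold change -0.59, adjusted p = 0.149). Abhd6, a second monoacylglycerol lipase, was at 19.6 to 28.1 CPM and 15.3 to 19.3 CPM (log2 fold change -0.48, adjusted p = 0.152), and the groups did not overlap.

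The last steps before the pathway are the uptake, binding and activation of fatty acids. Of 13 tested genes in this list, 11 were higher and 2 lower, with a median log2 fold change of 0.46. In 8 the groups did not overlap, which is 61.5% against 22.3% of all genes. An unadjusted p under 0.05 was also met by 8, which is 61.5% against 24.1% of all genes. No test of the list was made. The lower pair held its most abundant gene per length: Acsl6, an acyl-CoA synthetase, lay at 967, 989, 1260 and 1400 CPM in WT and at 399, 545 and 949 CPM in LC3b-/- (log2 fold change -0.87 ± 0.32, adjusted p = 0.164). Slc27a1, a fatty acid transporter, was at 159 to 219 CPM in WT and 85.4 to 146 CPM in LC3b-/- (log2 fold change -0.66, adjusted p = 0.129). Fabp5, a fatty acid binding protein that is abundant in epidermis, lay at 26.6, 25.9, 9.7 and 27.2 CPM in WT and at 153, 62.4 and 83.9 CPM in LC3b-/- (log2 fold change 2.16 ± 0.43, adjusted p = 0.0898). The ocular surface marker sums were 880, 626, 9.62 and 2479 CPM in WT and 25579, 7018 and 3498 CPM in LC3b-/-. The lowest and the highest library were the same in both measures, but LC3b-/- M had more Fabp5 than LC3b-/- F3 with a lower marker sum, and WT M1 had about as much Fabp5 as WT F1 with a higher sum. The part of these cells in the Fabp5 difference was not tested. Acsl5 was at 14.0 to 24.2 CPM in WT and 31.5 to 50.2 CPM in LC3b-/- (log2 fold change 1.12 ± 0.24, adjusted p = 0.0906).

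PPAR factors are nuclear receptors activated by fatty acids, and perilipin genes are among their known targets. Of 15 tested genes in this list, 10 were lower and 5 higher, with a median log2 fold change of -0.37. At an unadjusted p under 0.05 there were 2 higher and 3 lower, together 33.3% against 24.1% of all genes. The groups did not overlap in 5, with 2 above and 3 below WT, which is 33.3% against 22.3% of all genes. The receptors Ppard and Rxra had log2 fold changes of 0.44 and 0.41 (adjusted p = 0.121 and 0.178), and in both every LC3b-/- library was above every WT library.

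**Figure D5:**
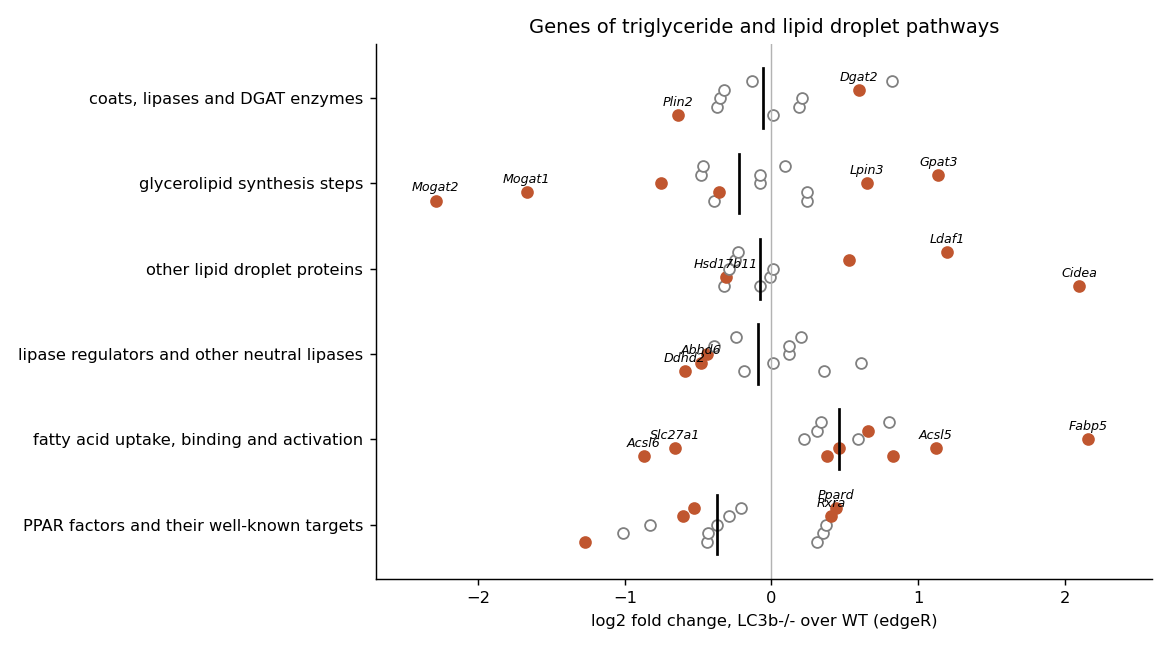
The horizontal axis gives the log2 fold change of LC3b-/- over WT, with 1 row for the 10 genes and 1 for each of the 5 pathway lists. Each circle is a tested gene, filled where its unadjusted p was under 0.05, and the black bar is the list's median, which lies at 0.46 for fatty acid uptake, binding and activation and at -0.37 for PPAR factors and their targets.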

How the data were processed

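RNA from RPE of 7 mice was sequenced from stranded poly(A) libraries. The authors aligned reads to GENCODE mouse transcripts (GRCm39) with salmon, summed them per gene with tximeta and deposited whole-number estimated counts, here used as counts. The genes and lists were chosen with earlier results of these data known. Here, edgeR 4.0.16 (filterByExpr, TMM, quasi-likelihood test, Benjamini-Hochberg over 16990 genes) compared 3 LC3b-/- with 4 WT libraries. The authors' own test was DESeq2, an alternative here (1.42.0), as were limma 3.58.1, other filters, scalings, covariates and left-out libraries. A gene passed at an adjusted p below 0.05 with a 1.5-fold difference. On simulated data for this comparison, 191 of 200 changed genes were recovered with 12 false calls. Those genes were well expressed and were given changes far larger than 1.5-fold, so recovery of smaller changes was not measured. CPM were scaled by TMM, and lengths were merged exons of GENCODE vM39, to which symbols were matched; 1 listed gene (Mettl7a1) was not matched. From each list the text names the most abundant gene per length and, at an unadjusted p under 0.05, up to 2 with the largest rise and 2 with the largest fall; Plin1, Cidec, G0s2 and Hilpda are named whatever they did. Some genes that this rule names are not reported here. Shared stretches of at least 200 bases at 95% identity were found with BLAST 2.17.0. Counts between 24495952 and 35616134 per library set the precision. No protein sequence was used here.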

Additional observations from a re-analysis of the deposited data

Results flagged for a closer look

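In 3 of 34 groups of WT values checked, 1 library stood apart from the other 3 by more than Dixon's criterion allows, and chance gives about 1 in 20. For Plin2 it was WT M1, at 136 CPM against 106 to 110 CPM in the WT females, with a gap of 0.872 of the whole range. WT M1 also had the highest RPE marker sum, 48148 CPM. For Cidec it was again WT M1, with 12 counts against 0 or 1 (gap 0.91). For Fabp5 it was WT F3, at 9.7 CPM against 25.9 to 27.2 CPM (gap 0.922), the library with the lowest ocular surface marker sum. For Plin2, WT M1 was the highest WT library, so leaving it out could not make the groups overlap. Without WT M1 the log2 fold change of Plin2 was -0.55.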

How the results depend on the processing

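The count of genes passing in the whole table was 40 in edgeR and depended on the method: 1810 with DESeq2, 124 with limma voom, 78 without a filter, 197 with sex as a covariate, 96 in females alone and 11 to 485 with 1 library left out, the highest without LC3b-/- M (215 without WT F1). Of the 10 genes, 0 passed in edgeR, and 1, Plin2, passed with DESeq2 (log2 fold change -0.67), with sex as a covariate (-0.69) and without LC3b-/- M (-0.86), so that leaving out 1 library gave 0 to 1. An unadjusted p under 0.05 was met by 2 of the 10, by 4 with sex as a covariate and by 2 to 4 with 1 library left out. The share of all genes with such a p is given only for the main test, so the other counts have no background here. Of the 65 pathway genes, 7 passed with DESeq2, 1 with limma voom, 2 with sex as a covariate, 2 in females alone and 0 to 2 with 1 library left out (1 without WT F1, 2 without LC3b-/- M). The groups of 2 of the 10 genes did not overlap, against 2 to 4 with 1 library left out (an alternative added after seeing the data), with 4 without WT F2, LC3b-/- F1 or LC3b-/- M. Groups of fewer libraries overlap less easily in any gene, and the share of all genes is not given for these smaller sets. The higher counts are therefore no result about the 10 genes. The causes were not tested.

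In the alternative tests, scalings of the library size, filters, covariates, block and left-out libraries that were fitted, fold changes kept their direction for 8 of the 10 genes: Plin2 ranged from -0.86 to -0.55 and Dgat2 from 0.43 to 0.72. Plin4, at 0.01, turned to -0.0044 with DESeq2, to -0.07 with the replicate block and to between -0.07 and 0.13 with 1 library left out. Plin5, which had 1 to 41 counts a library and whose fold change the depth does not fix, ranged from -0.39 without LC3b-/- F3 to 1.73 with limma voom, was between -0.39 and 1.21 with 1 library left out, and gave no value without WT F1, without WT M1 or with a minimum of 10 counts in every library, since it was then not tested. The levels per kilobase moved with the length used (added after seeing the data), and so did the shares among perilipins: by the longest transcript, Plin2 held 59.7% in WT and 53.0% in LC3b-/-, Plin3 33.9% and 37.5%, and Plin4 6.18% and 8.84%, and by the canonical transcript, added after seeing the data, 64.2% and 58.1%, 31.9% and 36.0%, and 3.74% and 5.46%.

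Mice matched by replicate label across the 2 genotypes (F1, F3, and WT M1 with LC3b-/- M) did not all deviate together (r = 0.15, 0.24 and -0.17). The label of LC3b-/- M has no replicate number, and WT F2 had no match. No LC3b-/- library correlated best with its matched WT library, and the main test did not pair them. With this match as a replicate block, 1 gene passed in the whole table and 5 of the 10 genes had an unadjusted p under 0.05. The share of all genes with such a p in that fit is not given here. The 5 genes can therefore not be set against the 24.1% of the main test.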

Other observations

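The make-up of the acyl-CoA synthetase mRNAs, per length, was led by Acsl6 in both genotypes. Acsl6 held 72.6%, 72.0%, 77.4% and 78.1% of the sum of 5 synthetases in WT, and 40.5%, 48.5% and 66.5% in LC3b-/-. Acsl3, a synthetase of the droplet surface, held 16.9% ± 1.82 in WT (SD, n = 4) and 29.1% ± 7.25 in LC3b-/- (SD, n = 3). Acsl1, Acsl3, Acsl4 and Acsl5 each had their LC3b-/- libraries above every WT library in share. In LC3b-/- they held 4.35% to 15.2%, 21.3% to 35.7%, 3.74% to 4.7% and 4.07% to 9.39%. A lower share of Acsl6 raises the other shares by construction. In CPM, the LC3b-/- libraries of these genes also lay above every WT library. Their log2 fold changes were 0.83, 0.38, 0.46 and 1.12, with adjusted p in edgeR of 0.16, 0.182, 0.133 and 0.0906.

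The protein-coding genes whose pattern over the 7 libraries was closest to that of Plin2 were Arl2, Mif4gd and Basp1, with root mean square differences of 0.037, 0.056 and 0.057 in centred log2 CPM, against a median of 0.418 over 9750 genes. For Pnpla2 they were Mfsd14b, Numa1 and Srd5a3, at 0.033, 0.038 and 0.046 against a median of 0.309. With 7 libraries of 2 genotypes, many genes come close to any pattern.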
